A study of Mus musculus with 2 samples.

Results

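The genes described here encode 7 receptor chains of the common gamma chain cytokine family (Il2ra, Il2rb, Il2rg, Il7r, Il4ra, Il21r and Il15ra) and 3 feedback inhibitors of cytokine signalling (Cish, Socs1 and Socs3). They were taken by symbol from a table of read counts for 35275 genes, and all 10 had a row. The RNA came from TEa cells sorted from the spleen, in 2 libraries with 1 per group. TEa cells are CD4 T cells of strain C57BL/6 with a transgenic receptor that recognises the alloantigen I-E alpha of BALB/c mice. The exhausted cells (title Exhaust) had been transferred into CB6F1 mice, the F1 offspring of a BALB/c by C57BL/6 cross, whose own cells carry this antigen. The effector cells (title Effector) had been transferred into WT C57BL/6 mice that were given a Balb/c skin transplant. The study asks how abundant and moderate antigen change the transcripts of these cells, and recipient strain and skin graft differ between the groups together with the antigen. The group names are the submitters' own. The labels name no depletion of the hosts' own cells, and none of the sources used here gives the time after transfer, the number of mice per library or their age.

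Cytokines of this family, which include IL-2, IL-4, IL-7, IL-15 and IL-21, signal through receptors that share the common gamma chain, encoded by Il2rg. Each pairs it with a chain of its own, and the assembled receptor activates the kinases JAK1 and JAK3, which phosphorylate STAT proteins. Phosphorylated STAT proteins turn on, among other genes, those of CIS and the SOCS proteins, which bind the receptors or the kinases and dampen the signal. In T cells these cytokines support growth, survival and the choice of effector fate, and the alpha chain of the IL-2 receptor (CD25) is itself induced by activation and by IL-2.

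The exhausted library held 8508129 counted reads and the effector library 7844445. Counts were scaled by effective library size (TMM, the trimmed mean of M-values), and a fold is a ratio of scaled counts with no pseudocount. Its 95% interval is exact and binomial, from how the gene's reads divide between the libraries, and covers counting error only. With 1 library per group there is no replicate check and no test between groups, so no p-value is given. A gene was measured if the libraries together held 50 or more of its reads, and it was called higher or lower when the fold was 2 or more with equality outside the interval. Of 9999 measured genes 6.65% were called higher and 7.07% lower in the exhausted library, 13.7% in all. Their median log2 ratio was -0.002.

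The libraries had the transcripts of CD4 T cells. Levels are given as RPKM, reads per 1000 bases of gene length per 1000000 effective reads. The summed level of 6 T cell markers, Cd4 among them, was 3936 RPKM in the exhausted and 2757 RPKM in the effector library. Cd8a was at 0 in each library, where 3 reads are taken as the floor, and Cd8b1 had 81 exhausted and 164 effector reads. Cd8b1 was called lower in the exhausted library (2.19-fold, 1.668 to 2.895), at 6.72 RPKM against 14.7 RPKM in the effector library. The part of CD8 T cells in the differences described below was not tested. Of the B cell markers Ms4a1 was at 0 in both libraries, and the summed level over 5 markers was 1.62 RPKM in the exhausted and 1.85 RPKM in the effector library.

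The exhausted library had far fewer reads of the IL-2 receptor alpha chain gene and of the feedback genes Cish and Socs3, and fewer of Il4ra and Il15ra. Il2rb and Il21r lay lower by less than 2-fold. Il2rg, Il7r and Socs1 were at 86.8%, 94.2% and 93.5% of the effector level. All 10 genes were measured, 5 were called lower, none was called higher and 5 were neither, against the 7.07% of all measured genes called lower, 6.65% called higher and 13.7% called either way. The log2 ratio was below 0 for all 10, with a median of -0.80, and it was below 0 for 5016 of the 9999 measured genes. Il2ra and Cish passed the read minimum only through the effector library, so a call of lower was all but fixed for them. The 10 genes were chosen with results of the same libraries known. In bulk RNA, fewer cells that carry a transcript and less of it per cell cannot be told apart.

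**Figure D1:**
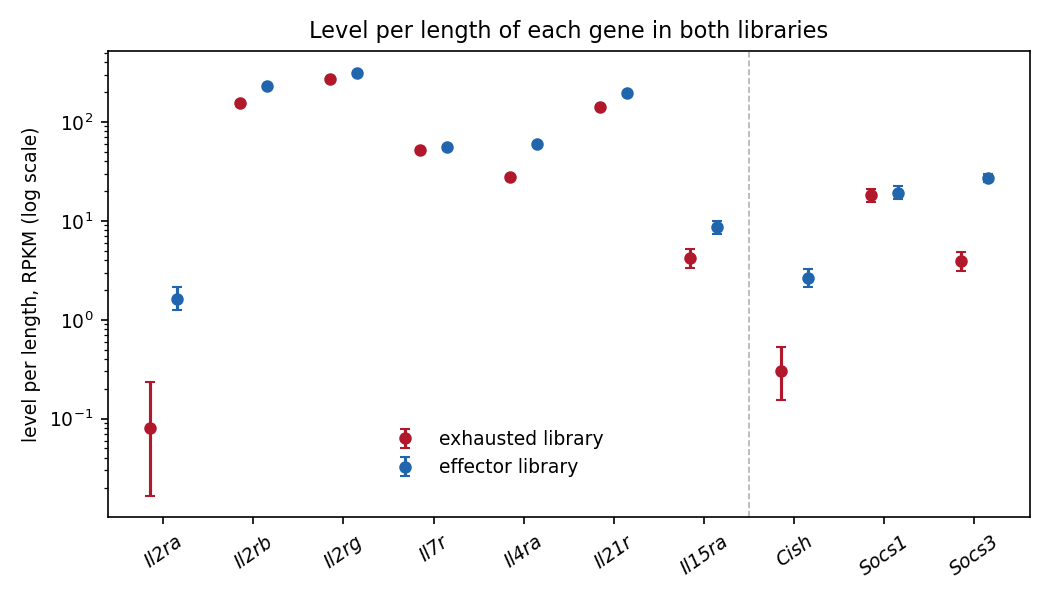
Level of each gene, in RPKM on a log axis, in the exhausted library (red, left of each pair) and the effector library (blue). Points are single libraries and bars are exact Poisson 95% intervals, hidden behind the point where they are short. Il2ra, Cish and Socs3 lie furthest apart, whereas the points of Il2rg, Il7r and Socs1 lie nearly level.

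Il2ra (ENSMUSG00000026770) encodes the chain that raises the affinity of the receptor for IL-2 and marks activated and regulatory T cells. It had 3 reads in the exhausted library (exact Poisson 95% interval 0.619 to 8.77) and 57 in the effector library (43.2 to 73.8). The exhausted library was thus 20.6-fold lower (6.69 to 103), and only 42 of the 9999 measured genes had a smaller ratio. Il2ra passed the read minimum only through the effector library, and its level was low in both, at 0.0798 RPKM in the exhausted and 1.64 RPKM in the effector library.

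Regulatory T cells are a possible carrier of Il2ra, and their 4 markers did not move together. Foxp3, the lineage-defining factor gene, had 12 reads in the exhausted library and 44 in the effector library, and its exons overlap those of Ppp1r3f on the other strand. Ikzf4 had 8 reads in exhausted and 48 in effector cells. Ikzf2, which encodes Helios, had 459 reads in exhausted and 173 in effector cells, and Ctla4 had 762 reads in exhausted and 464 in effector cells. In all, 2 of the 4 markers were called lower and 1 higher, and their summed level was 52.8 RPKM in the exhausted and 35.6 in the effector library. Ctla4 alone gave 46.4 RPKM of this sum in exhausted cells and 30.6 RPKM in effector cells. The part of regulatory T cells in the Il2ra difference was not tested.

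Il2rb (ENSMUSG00000068227, mm10 chromosome 15, 78480553 to 78495066, minus strand) encodes the signalling chain that the receptors for IL-2 and IL-15 share. It was among the genes with the most reads in both libraries, with 3571 reads in exhausted and 4838 in effector cells. These were more reads than 96.3% of measured genes had in the exhausted and 98.1% in the effector library, not divided by length. The exhausted library was 1.47-fold lower (1.403 to 1.531), so the difference exceeds counting error but stays short of 2-fold. NK cells also carry Il2rb. Of 5 NK markers 2 were measured, Klrb1c with 229 exhausted and 36 effector reads and Eomes with 10 exhausted and 53 effector reads. Each passed the read minimum only through the library with more of its reads. Ncr1, which marks NK cells more strictly, had 0 reads in exhausted and 5 in effector cells. Klrk1 had 2 reads in exhausted and 18 in effector cells. The summed level of the NK list was 10.7 RPKM in the exhausted and 4.79 RPKM in the effector library. Klrb1c alone gave 10.3 RPKM of this sum in exhausted cells and 1.75 RPKM in effector cells. The part of NK cells in the Il2rb difference was not tested.

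Il2rg (ENSMUSG00000031304, chromosome X, 101264378 to 101268255, minus strand) had the highest level of the 10 genes in both libraries, at 269 RPKM in exhausted cells and 310.0 in effector cells. Its reads numbered 3819 in the exhausted and 4066 in the effector library, a 1.15-fold lower level (1.10 to 1.20). The readthrough locus Gm20489 overlaps it and had 0 reads in both libraries.

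Il7r (ENSMUSG00000003882, chromosome 15, 9506161 to 9529876, minus strand) encodes the alpha chain of the IL-7 receptor, which naive and memory T cells carry and which is commonly lost on acute activation. It had 1417 reads in exhausted and 1391 in effector cells. The interval of the ratio, 0.874 to 1.015, holds equality, so no difference was detectable at this depth.

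Il4ra (ENSMUSG00000030748) encodes the ligand-binding chain of the IL-4 receptor, which also serves IL-13. It had 1191 reads in the exhausted library and 2395 in the effector library, 2.18-fold lower in exhausted cells (2.03 to 2.33). Its own ligand gene went the other way: Il4 had 600 reads in exhausted and 2 in effector cells. Il21r (ENSMUSG00000030745), the gene of the IL-21 receptor chain, had 3162 exhausted and 4004 effector reads and was 1.37-fold lower in exhausted cells (1.31 to 1.44), short of 2-fold. Il4ra and Il21r are neighbours in the same orientation on mm10 chromosome 7, with Il4ra at 125552282 to 125579472 and Il21r at 125603429 to 125633570 and 23957 bases between them.

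Il15ra (ENSMUSG00000023206) encodes the high-affinity chain that binds IL-15 and can present it to neighbouring cells. It had 82 reads in exhausted and 156 in effector cells, 2.06-fold lower in exhausted cells. The interval of 1.57 to 2.72 reaches well below 2-fold, so this call lies at the edge of the rule. Il15ra and Il2ra are also neighbours, both on the plus strand of chromosome 2, with Il2ra at 11642792 to 11693191 and Il15ra at 11705287 to 11733986. Only 12096 bases separate them, and the fold of Il2ra was the larger, with intervals that do not overlap.

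Myeloid and dendritic cells carry Il15ra strongly, and most of their 8 markers had few reads. Lyz2 had 10 reads in exhausted and 37 in effector cells, and Csf1r had 4 in exhausted and 18 in effector cells. Itgax had 1 read in exhausted and 0 in effector cells, and Siglech was at 0 in both. Itgam, the only measured member, was called higher with 183 exhausted and 22 effector reads, and passed the read minimum only through the exhausted library. Their summed level was 5.86 RPKM in the exhausted and 5.4 in the effector library. Itgam alone gave 4.48 RPKM of this sum in exhausted cells and 0.583 RPKM in effector cells. The part of myeloid and dendritic cells in the Il15ra difference was not tested.

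**Figure D2:**
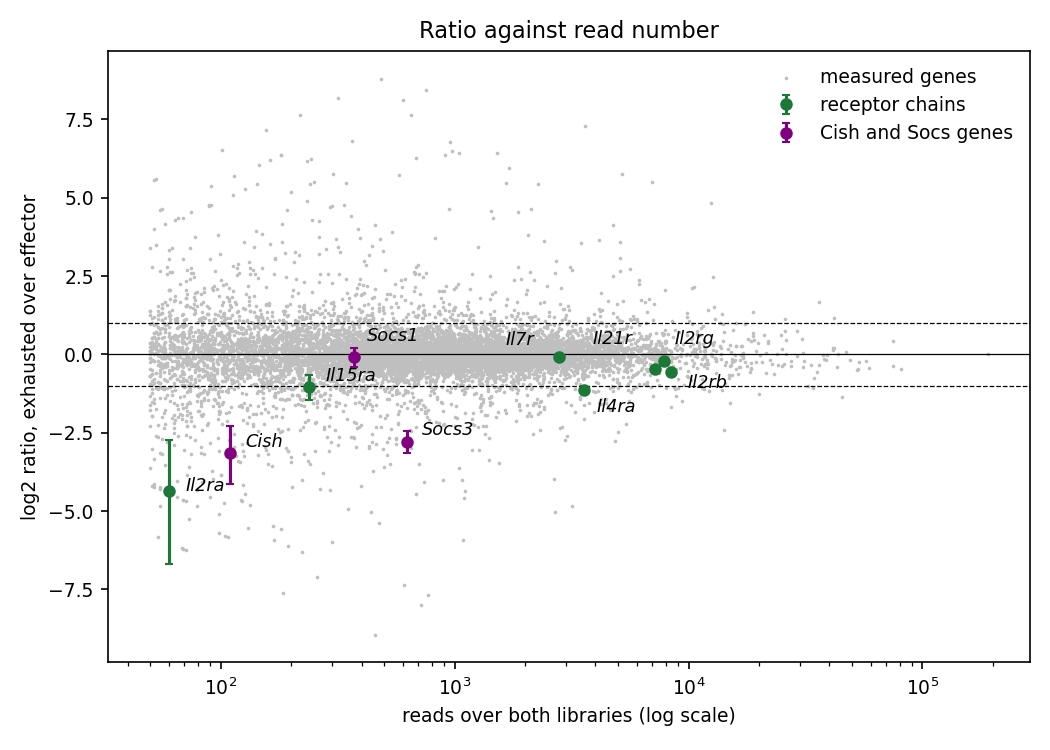
Log2 ratio of the exhausted over the effector library (vertical axis) against reads over both libraries on a log axis, for 9999 measured genes (grey), the receptor chains (green) and Cish, Socs1 and Socs3 (purple). Bars are 95% counting intervals and dashed lines mark 2-fold; Il2ra, Cish and Socs3 lie well below the lower line, and Il15ra and Il4ra lie close to it.

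The makeup of the receptor chain pool differed between the libraries. Reads of each chain were set against those of Il2rg in the same library, which needs no scaling between libraries. For 100 Il2rg reads the exhausted library had 31.2 Il4ra reads and the effector library 58.9, a ratio of 0.530 between the libraries (exact 95% interval 0.487 to 0.575). For Il2rb there were 93.5 reads per 100 in exhausted and 119 in effector cells, a ratio of 0.786 (0.738 to 0.836). Both chains were thus scarcer beside the common chain in exhausted cells by more than counting error.

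Il21r stood at 82.8 reads per 100 Il2rg reads in the exhausted and 98.5 in the effector library, a ratio of 0.841 (0.788 to 0.897). Il15ra stood at 2.15 in exhausted and 3.84 in effector cells, a ratio of 0.560 (0.421 to 0.739). Il2ra stood at 0.0786 in exhausted and 1.402 in effector cells, a ratio of 0.0561 (0.0112 to 0.172). Il7r was the exception, with 37.1 in exhausted and 34.2 in effector cells and a ratio of 1.09 whose interval (0.994 to 1.18) holds equality.

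T cell marker genes, set in place of Il2rg, changed this picture for Il7r. All 6 T cell markers (Cd3d, Cd3e, Cd3g, Cd4, Cd5 and Cd28) had larger scaled counts in the exhausted library, by 1.15-fold for Cd3d to 1.65-fold for Cd28, and none was called. Against the summed reads of Cd3d, Cd3e and Cd3g the Il7r ratio was 0.689, Il2rb was at 0.499 and Il4ra at 0.337.

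Levels per length gave the abundance of the chains relative to each other. In exhausted cells the order was Il2rg, Il2rb (156 RPKM), Il21r (143), Il7r (52.0), Il4ra (27.5), Socs1 (18.0), Il15ra (4.17), Socs3 (3.92), Cish (0.301) and Il2ra (0.0798). Every neighbouring pair in this order differed by more than counting error except Il15ra and Socs3, whose level ratio was 1.06 (0.776 to 1.46). In effector cells the order was Il2rg, Il2rb (229), Il21r (195.5), Il4ra (59.9), Il7r (55.2), Socs3 (27.0), Socs1 (19.3), Il15ra (8.58), Cish (2.66) and Il2ra (1.64), and all neighbours differed by more than counting error. The exhausted library thus ranked Il7r above Il4ra and Socs1 above Socs3, and the effector library ranked both pairs the other way round.

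The summed level of the 7 chains was 652 RPKM in exhausted and 859.6 RPKM in effector cells. Il2rg made up 41.3% of this sum in the exhausted and 36.1% in the effector library. Il2rb took 23.9% in exhausted and 26.6% in effector cells, and Il21r 21.9% in exhausted and 22.8% in effector cells. The order of the next chains turned round, with Il7r at 7.98% in exhausted and 6.42% in effector cells and Il4ra at 4.22% in exhausted and 6.97% in effector cells. Il15ra took 0.64% in exhausted and 0.998% in effector cells, and Il2ra 0.0122% in exhausted and 0.191% in effector cells.

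**Figure D3:**
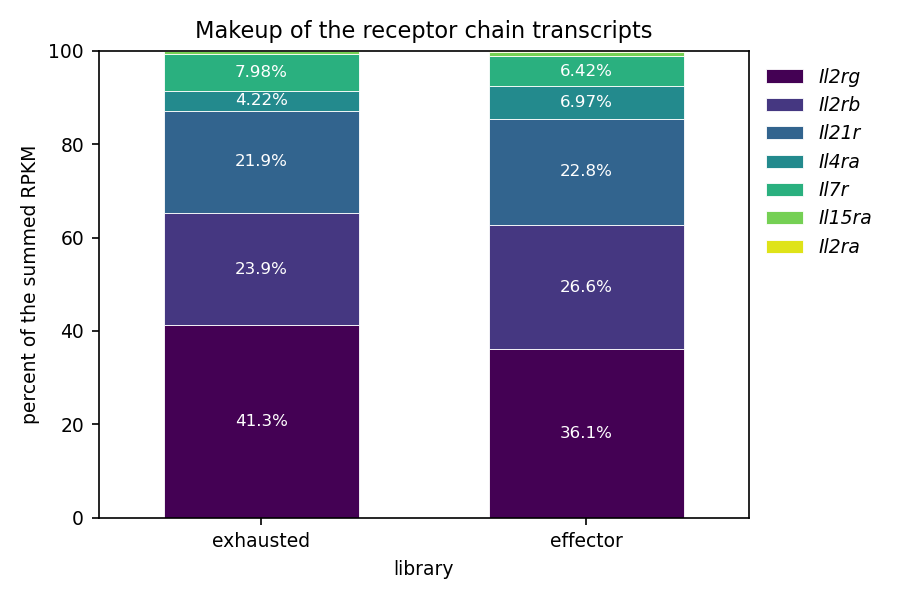
Share of each of 7 receptor chain genes in their summed level per length, in percent, in the exhausted library (left bar) and the effector library (right bar). Each bar is a single library with no error bar; Il2rg takes 41.3% in exhausted and 36.1% in effector cells, and Il4ra takes 4.22% in exhausted and 6.97% in effector cells.

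The feedback genes split. Cish (ENSMUSG00000032578, chromosome 9, 107296026 to 107302784, plus strand) encodes CIS, an SH2 domain protein that is induced by STAT5 and binds activated cytokine receptors. It had 12 reads in the exhausted library (exact Poisson interval 6.20 to 20.96) and 98 in the effector library (79.6 to 119), 8.83-fold lower in exhausted cells (4.83 to 17.7), and like Il2ra it passed the read minimum only through the effector library. Socs3 (ENSMUSG00000053113, chromosome 11, 117966079 to 117970047, minus strand) encodes an inhibitor of JAK kinases that acts on receptors of the IL-6 family and others. It had 85 reads in exhausted and 542 in effector cells, 6.90-fold lower in exhausted cells (5.48 to 8.78). Of the measured genes 0.97% had a smaller ratio than Cish and 1.3% a smaller ratio than Socs3. Socs1 (ENSMUSG00000038037, chromosome 16, 10783808 to 10785536, minus strand), which encodes the JAK inhibitor that restrains signals of interferon gamma and of common gamma chain cytokines, had 187 exhausted and 185 effector reads. Its ratio of 0.934 has an interval of 0.758 to 1.15, which holds equality and lies within 2-fold on both sides.

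STAT5 and other STAT dimers bind DNA at the palindrome TTCNNNGAA, and the windows from 250 bases before to 50 bases after the RefSeq gene starts (build GRCm38.p6) were searched for it. The motif reads the same on both strands, and no other motif was searched. Windows were found for 9 of the 10 genes, all but Il2rb. The motif stood in the windows of Cish, Socs3 and Il7r, and in 8.30% of all 32851 windows. Counted by gene, the motif stood in a window of 9.55% of 27025 genes. It occurred more than once in 0.457% of windows, that of Cish among them. The sites are shown because Cish and Socs3 are the feedback genes with the lower counts, and Il7r is shown beside them as a gene at a similar count in both libraries. Each line gives 30 bases of the gene's own strand, 5′ to 3′, with the motif in capitals.
Cish, chr9:107296654-107296683, plus strand: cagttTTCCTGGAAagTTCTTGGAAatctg
Socs3, chr11:117969501-117969530, minus strand: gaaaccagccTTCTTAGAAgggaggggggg
Il7r, chr15:9529999-9530028, minus strand: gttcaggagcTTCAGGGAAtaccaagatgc

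In Cish the motifs begin at bases 1 and 12 of the RefSeq transcript, inside the first exon and 5′ UTR of a longer GENCODE M21 transcript. In Socs3 the motif begins 154 bases and in Il7r 142 bases before the RefSeq start, and GENCODE M21 places both in an intron of a longer transcript of the gene. These are matches of letters, not measured binding. The motif thus stood in Cish and Socs3, which were called lower, and in Il7r, which was not. It was absent from the windows of Il2ra, Il4ra and Il15ra, called lower, and of Il2rg, Il21r and Socs1, not called. Sequence outside these windows was not searched, so sites elsewhere in these genes are not known.

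Other genes of the pathway were read from lists by role. The calls in each list stand beside 7.07% of all measured genes called lower and 6.65% called higher. Of 6 ligand genes 3 were measured. Il4 was called higher at 277-fold (76.4 to 2295), and so was Il21 with 1501 exhausted and 16 effector reads (86.7-fold, 53.2 to 152). Il4 and Il21 passed the read minimum only through the exhausted library. Il2 was called lower with 8 exhausted and 45 effector reads (6.08-fold, 2.84 to 14.9). Il7 and Il9 had 0 reads in both libraries, and Il15 had 0 in exhausted cells and 1 in effector cells. The antisense neighbour Gm12534 overlaps exons of Il21 and had 127 exhausted and 0 effector reads.

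Transcripts of the kinases and STAT proteins were closer between the libraries. Of 11 JAK and STAT genes all were measured, 1 was called lower and none higher, with a median log2 ratio of -0.17. The gene called lower was Stat4, whose protein transmits IL-12 signals, with 400 exhausted and 901 effector reads (2.44-fold, 2.16 to 2.75). Stat2, part of the type I interferon response, had 513 exhausted and 931 effector reads (1.96-fold lower, 1.76 to 2.19). Jak3, the kinase bound to the common gamma chain, had 3107 exhausted and 1910 effector reads, a ratio of 1.504 (1.42 to 1.59). Its exons overlap those of Insl3 on the same strand, which had 31 exhausted and 13 effector reads.

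Among those named after their values were seen, Jak1 had 15064 exhausted and 15984 effector reads. Stat5a had 812 exhausted and 722 effector reads, and Stat5b had 2230 exhausted and 2364 effector reads. Stat6, which IL-4 activates, had 3712 exhausted and 3619 effector reads. The ratios of these 4 genes lay between 0.871 and 1.04. Stat5a shares exon sequence with Stat3 on the other strand, Stat6 with Nab2 and Jak1 with Raver2.

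Of 5 other SOCS family genes 4 were measured, 1 was called higher, none was called lower and 3 were neither. The 4 measured genes had log2 ratios above 0, with a median of 0.65. Socs7 was called higher with 80 exhausted and 35 effector reads (2.11-fold, 1.404 to 3.24). Socs5 had 235 exhausted and 119 effector reads (1.83-fold, 1.46 to 2.30), Socs6 had 273 exhausted and 187 effector reads, and Socs4 had 167 exhausted and 115 effector reads, none of them past 2-fold. Socs2, a further gene induced by STAT5, was not measured, with 3 exhausted and 6 effector reads.

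Of 10 other negative regulators of JAK and STAT signalling 1 was called higher, none was called lower, and the median log2 ratio was 0.17. The gene called higher was Ptpn11, which encodes the phosphatase SHP-2, with 1854 exhausted and 330 effector reads (5.19-fold, 4.62 to 5.86). SHP-2 also promotes growth factor signalling, so the list's name does not cover all that it does. Sh2b3, which encodes the adaptor LNK, had 1157 exhausted and 644 effector reads (1.66-fold). Its exons overlap those of Atxn2 on the other strand, which had 562 exhausted and 468 effector reads. Pias3, an inhibitor of STAT3, stood at 1.78-fold, and Ptpn1, the gene of the phosphatase PTP1B, at 1.45-fold.

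Of 19 genes that STAT5 is known to induce, 5 were called lower, 1 was called higher and 13 were neither, with a median log2 ratio of -0.78. Those called lower were Prf1 (perforin), with 2 exhausted and 96 effector reads, Gzmb (granzyme B), with 5 exhausted and 129 effector reads, Prdm1 (BLIMP-1), with 4 exhausted and 75 effector reads, Lta (lymphotoxin alpha), with 67 exhausted and 316 effector reads, and Foxp3. Prf1, Gzmb and Prdm1 passed the read minimum only through the effector library. Of all measured genes 7.07% were called lower and 6.65% higher. Tnfrsf9, which encodes 4-1BB and was named after its value was seen, was called higher with 632 exhausted and 238 effector reads. Others named afterwards were the survival gene Bcl2, with 850 exhausted and 773 effector reads, and the kinase genes Pim1 and Pim2. Pim1 had 52 exhausted and 96 effector reads, and Pim2 had 566 exhausted and 1030 effector reads. Both were just short of 2-fold, at ratios of 0.501 for Pim1 and 0.508 for Pim2. The cyclin gene Ccnd2, also named afterwards, had 7061 exhausted and 3863 effector reads (1.69-fold).

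Of 5 genes that STAT5 is known to repress 4 were measured, 1 was called lower and none higher, with a median log2 ratio of -0.51. Cxcr5 was called lower with 137 exhausted and 1413 effector reads, and its exons overlap Bcl9l on the other strand. Bcl6 had 188 exhausted and 181 effector reads and Tcf7 had 20198 exhausted and 18980 effector reads, with intervals that hold equality. Il6ra, the IL-6 binding chain gene, had 842 exhausted and 1523 effector reads (ratio 0.511). The lists of induced and repressed genes thus both had medians below 0.

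**Figure D4:**
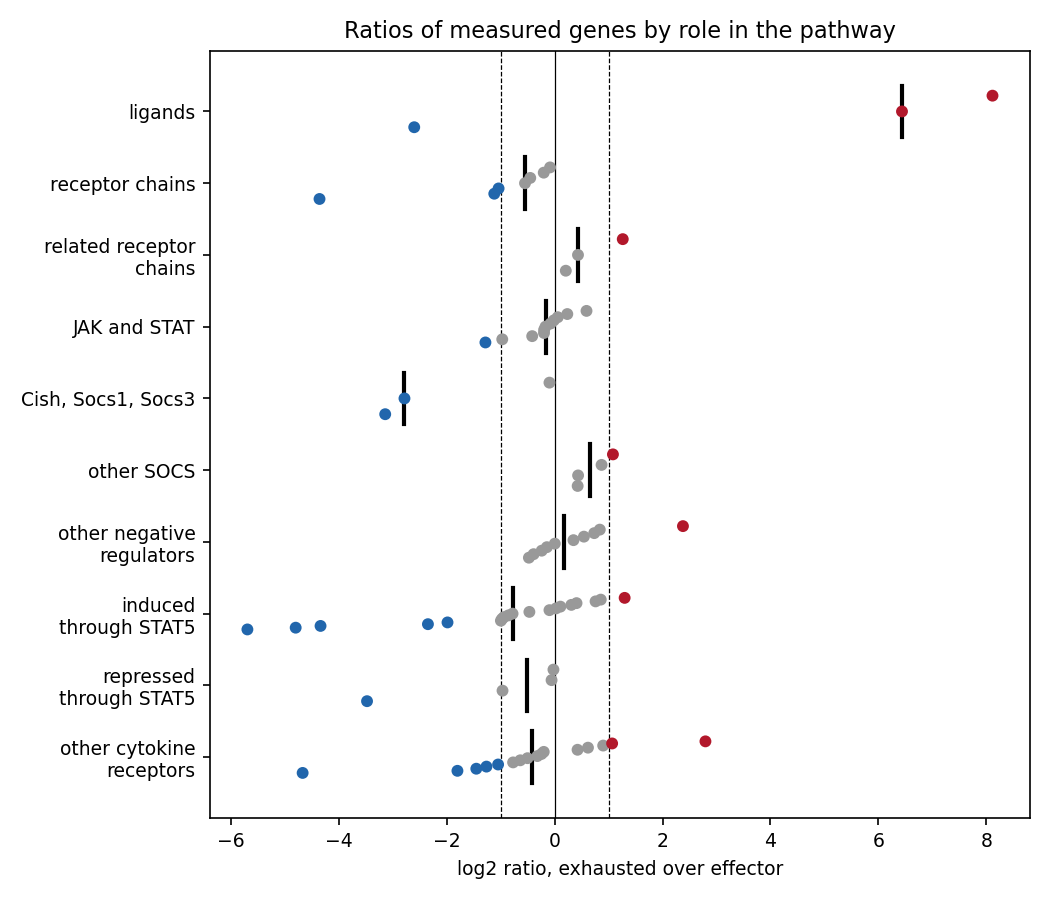
Log2 ratio of the exhausted over the effector library for every measured gene of 10 lists, grouped by role; each point is a gene, black bars are list medians and dashed lines mark 2-fold, with genes at least 2-fold higher in red and at least 2-fold lower in blue. Il4 and Il21 lie far to the right among the ligands, whereas the receptor chains and Cish and Socs3 lie to the left and most JAK and STAT genes lie near 0.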

How the data were processed

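Sorted TEa cells were frozen, RNA was taken up in Trizol and a Takara low-input kit for total RNA was used, per the labels' protocols. The authors deposited raw read counts per gene in 1 table, which also gives position, length and type. Reads were handled with STAR 2.6 on mm10, per the submitters' processing notes. The sources used here give neither the counting program nor its annotation, strand setting or handling of shared reads. The kit amplifies cDNA and the table records no molecular identifiers, so intervals and floors cover counting error only and may be too narrow.

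Effective library sizes came from edgeR 4.0.16 (TMM over genes with at least 50 reads) in R 4.3.3. Exact 95% intervals (Clopper-Pearson for ratios, Poisson for counts, conditional for chain ratios) came from scipy 1.17.1. A library at 0 was set to a floor of 3 reads. Levels are reads per 1000 bases of the length in the deposited table, whatever transcripts were present, per 1000000 effective reads (RPKM). The rule was tested on simulated Poisson counts, which hold counting error but no spread between libraries or from amplification. The 16 lists held 121 symbols, 1 matched by Ensembl ID. The genes and lists were chosen with earlier results of these data known. Apart from the 10 genes, the 4 measured genes of each list with the most extreme log2 ratios were named, and further names are said to be later choices, apart from marker genes and genes at 0. Some genes that this rule or the marker lists would name are not reported here. With 2 libraries a gene's pattern is a single ratio, so no genes were matched by pattern. Exon overlap was read from GENCODE M21, with the coordinates of genes as in the deposited table. Overlaps are not named for every gene that has one. Alternatives were scaling by upper quartile, by total counts or by DESeq2 1.42.0, other read minimums and size rules, protein-coding genes only, thinned depth and a prior count.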

Additional observations from a re-analysis of the deposited data

How the results depend on the processing

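The scaling alternatives, protein-coding genes only, thinning of the deeper library and a prior count of 2 left each of the 10 genes on its side of the rule. With 500 reads as the minimum 2 of the genes were called lower (Il4ra and Socs3, since Il2ra, Cish and Il15ra had too few reads), and with at least 4-fold 3 were (Il2ra, Cish and Socs3). With the interval wholly beyond 2-fold Il15ra was no longer called. No member was called higher in any alternative. The log2 ratio of Il2ra lay between -4.83 and -3.65 over its alternatives. Over all genes the counts called higher and lower were, in that order, 1034 and 1104 with a minimum of 1 read, 244 and 264 with 500 reads, 408 and 453 with the interval wholly beyond 2-fold, 220 and 238 at 4-fold, and 1371 and 1359 at 1.5-fold. Set against Cd3d, Cd3e and Cd3g in place of Il2rg, the Il7r ratio was 0.689 and its interval left equality; the Cd3 genes had larger scaled counts in the exhausted library. The order of levels was the same with total counts and with TPM. No paired analysis was possible because each group had 1 library, and no library could be left out for the same reason. Depth limits Il2ra and Cish most, with 3 and 12 reads in the exhausted library.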

Other observations

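Receptor genes of other cytokine families were not uniformly lower in the exhausted library. Of 20 such genes 16 were measured, 5 were called lower, 2 were called higher and 9 were neither, with a median log2 ratio of -0.41. Of all measured genes 7.07% were called lower and 6.65% higher. Il12rb2, a chain of the IL-12 receptor, had 5 exhausted and 118 effector reads (25.5-fold lower, 10.6 to 80.1), with exon overlap to the opposite-strand gene Serbp1. It passed the read minimum only through the effector library. Il18rap, the accessory chain of the IL-18 receptor, had 79 exhausted and 255 effector reads (3.49-fold lower, 2.70 to 4.55).

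The chains of the IL-10 receptor went opposite ways. Il10ra, the ligand-binding chain, had 2155 exhausted and 831 effector reads (2.40-fold higher, with a lower limit of 2.21). Il10rb, the chain it shares with other receptors, had 197 exhausted and 499 effector reads (2.74-fold lower, 2.32 to 3.25). Il27ra, named after its value was seen, had 6985 exhausted and 3089 effector reads (2.09-fold higher, 2.004 to 2.182), and Il1r1 had 45 exhausted and 6 effector reads (6.93-fold higher, 2.95 to 19.9). Il10ra belonged to a list of 6 partner chains of related receptors, of which 3 were measured, Il10ra was called higher and none was called lower, with a median log2 ratio of 0.43. In the same list Crlf2, the TSLP receptor gene, had 226 exhausted and 155 effector reads (1.35-fold), and Il6st, which encodes gp130, had 4859 exhausted and 3897 effector reads (1.15-fold). Il9r had 29 exhausted and 20 effector reads and Il13ra1 had 7 exhausted and 5 effector reads, both under the read minimum, and Il13ra2 had 0 in both.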
